A study of Mus musculus with 93 samples.

Results

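Odorant receptors are G protein-coupled receptors of the cilia of olfactory sensory neurons, and their genes, named Olfr in the mouse, lie in clusters on most chromosomes. Each receptor is encoded by a single coding exon. A mature neuron typically carries one receptor gene at a high level, transcribed from one allele, while the rest of the family stays silent. The genes on chromosome 14 include the well studied Olfr1507, Olfr1508 and Olfr1509, also called MOR28, MOR10 and MOR83, whose transcription in the mouse depends on a nearby enhancer, the H element.

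The genes described here are all those with a symbol starting with Olfr that the deposited annotation places on chromosome 14, which gave 40 of the 1112 Olfr symbols. They were chosen by name and position, not by their values. RNA sequencing was done on single cells picked by hand from dissociated olfactory epithelium of C57BL/6 mice, with cDNA primed from oligo(dT) and amplified by PCR. By the labels, 11 cells were at the Progenitor and 9 at the Precursor stage. The neurons were 27 at the stage Early Immature Neuron, 13 at Late Immature Neuron and 25 at Mature Neuron, and no genetic change or treatment is named. Neither the age nor the number of animals is named, so each stage is 1 sample and stages were not tested against each other. An SD is a spread over cells, and an exact 95% Clopper-Pearson interval covers counting error only. The labels do not say how stages were assigned. A further 8 libraries are technical repeats of 8 cells, and the values below are from the first library of each of the 85 cells.

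The tables give FPKM, the fragments of a gene scaled to its length and to the size of the library. Each FPKM unit stood for 0.556 to 9.83 fragments per kilobase in a library (median 5.64), and PCR copies are not independent molecules. Cells are named by the number in their label, and these numbers fall into 4 runs, D29 to D97 (6 cells), D168 to D205 (19 cells), D213 to D274 (23 cells) and D316 to D434 (37 cells). The labels do not say what the runs stand for. The median summed FPKM of 15 mature neuron and transduction genes was 22.1, 105, 645, 13754 and 15673 from the Progenitor to the Mature Neuron stage. The stage labels and these markers thus go together, which is no independent check, since how stages were assigned is not given.

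All 40 genes are annotated as protein coding in GENCODE M21, Olfr721-ps1 included. Each has a single coding exon, of 921 to 1062 bases, and 25 lie on the minus strand and 15 on the plus strand. On the mm10 build they form 3 groups and a lone gene when split at gaps over 500 kb. Olfr720, Olfr31 and Olfr721-ps1 lie at chr14:14175095-14408198. The main group of 28 genes, Olfr722 to Olfr750, lies at chr14:49894260-51071442. A group of 8, Olfr221 to Olfr1507, lies at chr14:52034130-52495695, and Olfr49 stands alone at chr14:54281896-54282925. Between the receptors of the main group lie 16 other protein-coding genes, among them Apex1, a DNA repair enzyme, and Tep1, a telomerase-associated protein, and 8 lie in the group of Olfr1507, among them Chd8, a chromatin remodeller.

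The files hold 46 rows for the 40 symbols, and for 6 symbols (Olfr726, Olfr728, Olfr730, Olfr741, Olfr745 and Olfr221) the rows are transcripts assembled from reads. The row with the highest FPKM was taken for each symbol in each cell. Row lengths run from 133 to 5961 bases, with 3 rows under 500 bases, and 6 rows cover no coding base. For Olfr728, Olfr730, Olfr741 and Olfr221 the highest row was one of these, downstream of the coding end. All 6 such rows lie wholly within exons of the same gene in GENCODE M21.

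Of the 40 genes, 16 (40%) reached an FPKM of 1 in at least 1 cell, beside 18.0% of all Olfr symbols. An FPKM of 10 was reached by 13 genes (32.5%, beside 14.5%), and an FPKM of 100 by 8 genes (20%, beside 8.54%). The other 24 were listed at 0 in all 85 cells, and a count of 0 allows a share of up to 3.53% of cells (3 of 85). This limit pools all stages and concerns listed values, not expression. A coding row can be at 0 beside a downstream row of the same gene, as for Olfr741 in D244 (344.1 FPKM downstream). Olfr1511, among the 24, had 0.233 FPKM in the repeat library of D187. In the first libraries no gene had a highest value between 0 and 1. The same count was 21 of 239 genes on chromosome 7, 21 of 131 on chromosome 9 and 29 of 84 on chromosome 11, which is 8.79%, 16.03% and 34.5%. These shares are a description, since several of the genes rest on a single cell. Without the Mature Neuron cell D97 the share was 27.5% (11 of 40), against 17.5% of all Olfr symbols.

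**Figure D1:**
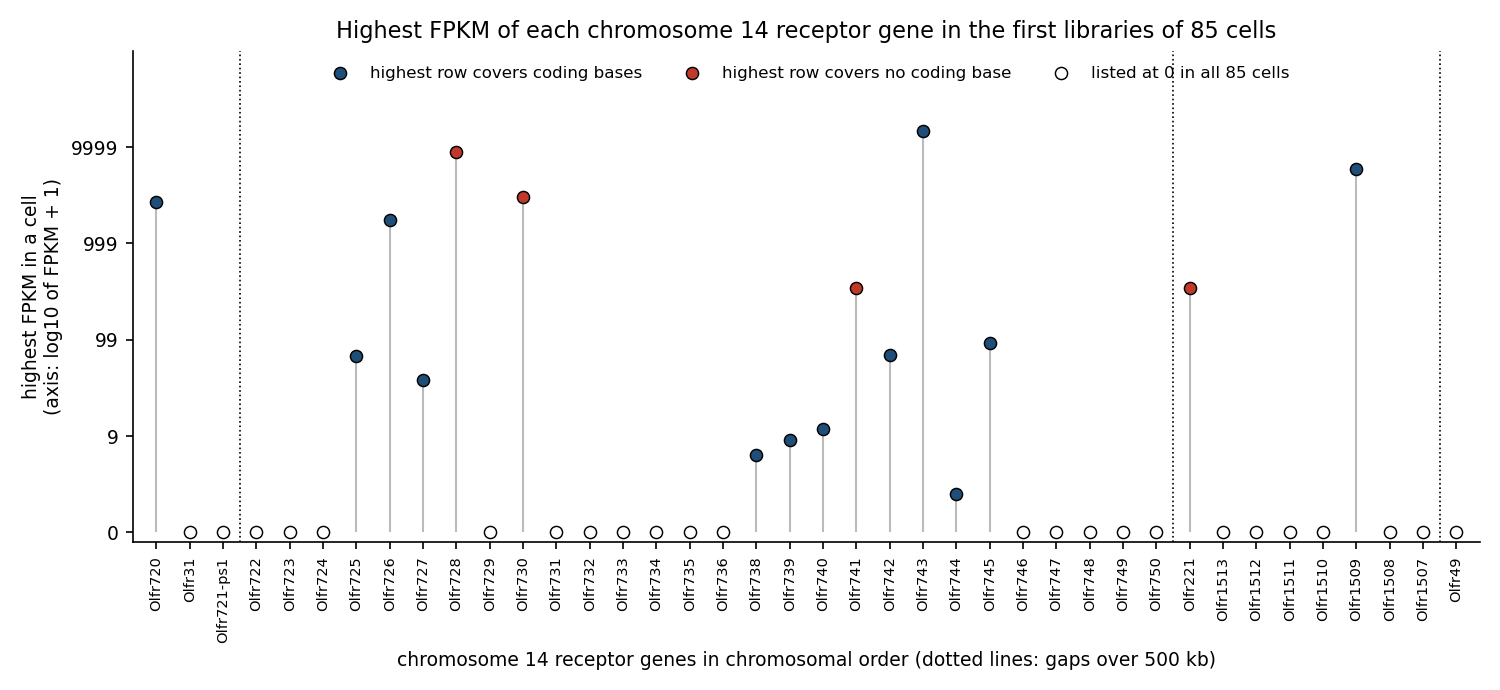
Highest FPKM of each of the 40 genes in any of 85 cells (vertical axis: log10 of FPKM + 1), in chromosomal order, with dotted lines at gaps over 500 kb. The 16 detected genes sit in 3 of the 4 position groups, 13 of them in the main group, and 24 open circles lie at 0.

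The main group, with 28 of the 40 genes, held 13 of the 16 detected ones. The group of Olfr1507, with 8 genes, held Olfr1509 and Olfr221, and the first group, with 3, held Olfr720. Olfr49, alone in the last, was at 0. Olfr1507 and Olfr1508, the neighbours of Olfr1509, were listed at 0 in all 85 cells. Runs of genes at 0 lay between the detected ones, the 6 from Olfr731 to Olfr736 and the 5 from Olfr746 to Olfr750.

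Of the 61 cells whose highest Olfr gene had an FPKM of 100 or more, 8 were led by a chromosome 14 gene (13.1%), while the chromosome holds 3.60% of the Olfr symbols. The 8 cells were led by 7 genes, and over all chromosomes 5.40% of Olfr symbols led a cell. Chromosome 7 led 9 of the 61 cells (14.8%) with 21.5% of the symbols, chromosome 11 led 9 (14.8%) with 7.55%, and chromosome 9 led 5 (8.20%) with 11.8%. Of the 8 cells, 2 were Early Immature Neurons, 1 a Late Immature Neuron and 5 Mature Neurons. Olfr726 was the gene that led more than 1 cell.

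Olfr743 had the highest FPKM of all 40 genes as deposited. With each library scaled to a common sum of nuclear genes, its highest value was 4735 FPKM and that of Olfr728, in D243, was 13575 FPKM. The value of Olfr728 is that of a 133-base row, and its coding row had 372 FPKM as deposited. Olfr743 lies on the plus strand at chr14:50533414-50534349, and its row of 936 bases covers the whole coding sequence. In the Mature Neuron cell D97 it reached 14557 FPKM, which was 91.9% of the summed Olfr FPKM of that cell, and the second gene, Olfr1229 of chromosome 2, had 877 FPKM. D97 expressed Omp, the olfactory marker protein of mature neurons, at 35132 FPKM, and Gap43, a growth cone protein of immature neurons, was at 0.

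Another 6 genes close to Olfr743 were also listed in D97, and all 6 share stretches of coding sequence with it. The 60-base windows that follow compare the coding sequences of these genes. The first block is the window in which the 7 genes are most alike, and the second the one in which they are least alike. Sequences are from GENCODE M21 on GRCm38 (mm10), given 5′ to 3′ on the plus strand, and capitals mark bases that differ from Olfr743. The most alike window lies at chr14:50533747-50533806 in Olfr743.
Olfr743: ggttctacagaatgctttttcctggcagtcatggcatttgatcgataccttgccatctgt
Olfr742: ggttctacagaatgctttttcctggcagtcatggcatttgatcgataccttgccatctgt
Olfr741: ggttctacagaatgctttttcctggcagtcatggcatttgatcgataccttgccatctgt
Olfr739: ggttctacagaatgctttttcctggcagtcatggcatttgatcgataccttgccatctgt
Olfr740: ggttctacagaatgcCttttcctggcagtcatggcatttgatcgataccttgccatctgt
Olfr738: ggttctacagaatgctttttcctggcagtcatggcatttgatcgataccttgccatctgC
Olfr744: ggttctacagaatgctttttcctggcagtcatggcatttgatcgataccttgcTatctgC
Olfr742, Olfr741 and Olfr739 match Olfr743 at all 60 bases, and the largest number of differing bases is 2. The window holds the codons of the conserved motif at the end of the third membrane helix by which odorant receptors are recognised.

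The least alike window lies at chr14:50533985-50534044 in Olfr743.
Olfr743: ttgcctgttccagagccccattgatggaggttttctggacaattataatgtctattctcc
Olfr742: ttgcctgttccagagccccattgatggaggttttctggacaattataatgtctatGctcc
Olfr741: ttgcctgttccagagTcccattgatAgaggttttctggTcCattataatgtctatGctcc
Olfr739: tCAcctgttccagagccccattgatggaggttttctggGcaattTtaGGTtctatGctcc
Olfr740: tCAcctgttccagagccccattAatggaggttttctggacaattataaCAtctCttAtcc
Olfr738: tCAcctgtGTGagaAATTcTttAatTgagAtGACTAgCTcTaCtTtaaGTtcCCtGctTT
Olfr744: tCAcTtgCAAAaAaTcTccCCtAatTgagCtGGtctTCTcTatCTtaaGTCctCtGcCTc
Here Olfr742 differs from Olfr743 at 1 base, Olfr741 at 5, Olfr740 at 7, Olfr739 at 8, and Olfr738 and Olfr744 at 30 each.

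The levels of these genes in D97 were all under 1% of that of Olfr743. Olfr742, with 94.5% identity to Olfr743 over its coding sequence, had 67.8 FPKM. Olfr740 (90.9% identity) had 10.7 FPKM, Olfr739 (92.1%) had 8.01 FPKM and Olfr738 (86.0%) had 5.37 FPKM. Olfr741 (92.3%) had 2.10 FPKM on its coding row, and Olfr744 (81.8%) had 1.49 FPKM, which at the depth of D97 stands for about 9.49 fragments. The order of the levels did not follow the order of identity, since Olfr741 lay below Olfr738.

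Likeness was also counted as shared 31-base words, the stretches of that length that 2 coding sequences have in common. Olfr742 holds 31.7% of its words in common with Olfr743, Olfr741 21.8%, Olfr739 18.3%, Olfr740 12.6%, Olfr738 10.4% and Olfr744 6.18%. All 6 genes that share a word with Olfr743 reached an FPKM of 1 in D97. Of the 33 that share none, Olfr1509 alone was above 0, at 20.2 FPKM. Apart from Olfr741, these genes reached an FPKM of 1 in no other first library. Olfr742 was above 0 in the 5 other cells of D29 to D97, at 0.118 to 0.688 FPKM, and at 0 in all other runs. How the authors' counting placed reads that match several genes is not given in the sources used, so the levels of these 6 genes in D97 are uncertain, and their part in reads of Olfr743 was not tested.

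**Figure D2:**
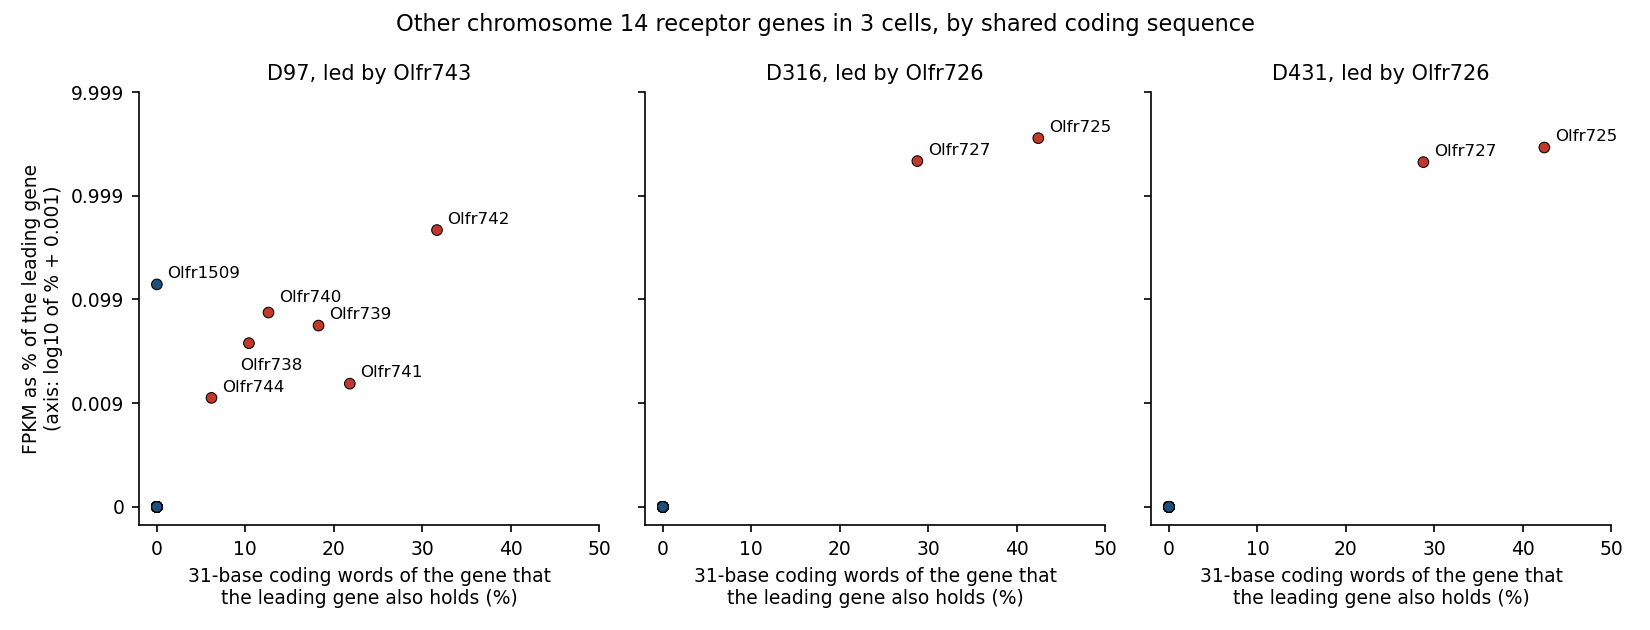
FPKM of each other chromosome 14 gene as a percentage of the leading gene (vertical axis: log10 of the percentage + 0.001) against the percentage of its 31-base coding words that the leading gene also holds, in cells D97, D316 and D431. Red points share words and lie above 0 in each cell, while blue points share none and lie at 0 except Olfr1509 in D97.

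Olfr726 led a cell of each of 2 stages. Its row of 5961 bases lies on the minus strand at chr14:50079267-50085227 and includes the 963-base coding sequence. In the Mature Neuron cell D316 it had 1740 FPKM, 88.5% of the summed Olfr FPKM, and in the Early Immature Neuron cell D431 it had 1580 FPKM, 93.7% of that sum. The cells differed in their stage markers: Omp had 6344 FPKM in D316 and 49.4 FPKM in D431, and Gap43 0.80 FPKM in D316 and 1259 FPKM in D431. Adcy3, the adenylyl cyclase of odorant transduction, was at 97.1 FPKM in D316 and 0.74 FPKM in D431. The receptor was thus at a like level in a cell with high and a cell with low Omp.

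The 2 genes most like Olfr726 accompanied it in both cells. Olfr725 (96.0% identity, 42.4% of its words shared) had 62.4 FPKM in D316 and 46.1 FPKM in D431, which is 3.59% and 2.91% of Olfr726. Olfr727 (93.1% identity, 28.8% of its words shared) had 37.5 FPKM in D316 and 33.3 FPKM in D431, which is 2.16% and 2.11% of Olfr726. The rows of Olfr725 and Olfr727 have 1110 and 1035 bases, while most of the 5961-base row of Olfr726 lies outside its coding sequence. Percentages over coding bases alone are thus not known. All 37 other chromosome 14 genes were at 0 in both cells.

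The windows that follow, from GENCODE M21 on GRCm38, show Olfr726 and its relatives where they are most alike (codons near the start of the protein, at chr14:50084596-50084655 in Olfr726) and, after them, where they are least alike (near the end of the coding sequence, at chr14:50083723-50083782 in Olfr726). They are written 5′ to 3′ on the strand of each gene, minus for Olfr726 and Olfr725 and plus for Olfr727, with capitals at bases that differ from Olfr726.
Olfr726: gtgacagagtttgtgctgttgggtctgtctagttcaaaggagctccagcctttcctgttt
Olfr725: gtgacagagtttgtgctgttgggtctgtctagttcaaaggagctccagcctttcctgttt
Olfr727: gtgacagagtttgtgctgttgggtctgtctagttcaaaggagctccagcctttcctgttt
Olfr726: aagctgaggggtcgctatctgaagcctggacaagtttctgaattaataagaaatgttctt
Olfr725: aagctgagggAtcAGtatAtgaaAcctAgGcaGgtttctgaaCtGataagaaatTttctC
Olfr727: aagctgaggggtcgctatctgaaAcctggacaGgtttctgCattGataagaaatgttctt
The genes are identical over the first window, and over the second Olfr725 differs at 12 bases and Olfr727 at 4.

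Olfr725 was also listed where its relatives were at 0. In the Late Immature Neuron cell D233 it had 66.9 FPKM, its highest value, and in the Precursor cell D242 it had 0.204 FPKM, with Olfr726 and Olfr727 at 0 in both. In D233 it ranked 3rd among the Olfr genes, after Olfr325 of chromosome 11 at 10652 FPKM and Olfr1284 of chromosome 2 at 517 FPKM. The repeat library of D233 had Olfr325 as its top receptor too, with Olfr725 at 0.

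Olfr1509 led the Mature Neuron cell D81. It lies on the plus strand at chr14:52450393-52451402, and had 5948 FPKM in D81, 85.7% of the summed Olfr FPKM. Olfr1383 of chromosome 11 came second at 763 FPKM. With each library scaled to a common sum of nuclear genes it had 1959 FPKM. D81 had Omp at 23413 FPKM and Gap43 at 0. Olfr1509 shares no 31-base word with Olfr1507 or Olfr1508, which do share words with each other and were at 0 in D81.

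Olfr720, of the group nearest the centromere, led the Mature Neuron cell D261. It lies on the minus strand at chr14:14175095-14176117 and had 2673 FPKM, 99.3% of the summed Olfr FPKM. The second gene, Olfr1033 of chromosome 2, had 3.84 FPKM, so the ratio was 697, the widest gap of the 8 cells. Its neighbours Olfr31 and Olfr721-ps1 were at 0 in every cell.

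For 3 of the leading genes the level depended on which row of the files was read. Olfr728 led the Mature Neuron cell D243 at 8831 FPKM on a row of 133 bases (chr14:50139177-50139309, 396 bases after the coding end). In the same cell its row of 4871 bases had 1106 FPKM, and its row of 1139 bases with the whole coding sequence had 372 FPKM. Olfr728 remained the top receptor of D243 on the coding row, since the second gene, Olfr378 of chromosome 11, had 156 FPKM.

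Olfr730 led the Late Immature Neuron cell D250 at 3005 FPKM on a row of 2048 bases (chr14:50183375-50185422, 843 bases after the coding end). Its coding row had 536 FPKM, and the second gene, Olfr1251 of chromosome 2, had 392.98 FPKM. The order of these 2 genes was thus the same on the coding row, but the ratio was 7.65 with the downstream row.

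Olfr741 led the Early Immature Neuron cell D244 at 344.1 FPKM on a row of 513 bases (chr14:50486546-50487058, 154 bases after the coding end), whose strand is not given. Its coding row was at 0 in D244. Olfr328 of chromosome 11 followed at 266 FPKM and Olfr1322 at 261.8 FPKM, so no receptor stood apart in this cell. With rows that overlap a coding sequence alone, 7 of the 58 cells with a top receptor were led by a chromosome 14 gene, D244 no longer among them.

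Olfr221 had 342.8 FPKM in the Early Immature Neuron cell D197 and 12.5 FPKM in the Early Immature Neuron cell D202, both on a row of 173 bases (chr14:52034130-52034302) that begins 875 bases after the coding end. Its coding row was at 0 in every cell. In D197 the top receptor was Olfr1104 of chromosome 2 at 368 FPKM, close to Olfr221. Olfr745, in the main group, had 91.6 FPKM in the Early Immature Neuron cell D318, where it ranked 5th after Olfr457 at 264.97 FPKM. These cells held several receptors at like levels. The top receptor made up 34.2% of the summed Olfr FPKM in D197, 32.1% in D244 and 22.8% in D318. It made up 85.7% to 99.3% in the other 7 cells led by a chromosome 14 gene. In D243 and D250 that share rests on rows without coding bases. On the coding rows, at 372 FPKM for Olfr728 in D243 and 536 FPKM for Olfr730 in D250, it would be lower.

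Markers of other cell types were also present in some of the 8 cells. In D244, all 9 genes of the list for sustentacular cells, the supporting cells of the epithelium, reached an FPKM of 1 (sum 4000.6 FPKM), with Cbr2 at 2436 FPKM and Cyp2g1 at 574 FPKM. In D97, D81 and D243 the list summed to 1622, 1007 and 615 FPKM, with Cbr2 at 1043, 1005 and 484 FPKM. Only 2 of the 9 genes reached an FPKM of 1 in D97 and in D81, and 5 in D243. Cyp2a5, Cyp1a2, Ermn, Krt8, Krt18 and Notch2 were at 0 in D97 and D81. In D250, 3 of 11 blood and immune genes reached an FPKM of 1 (sum 1159 FPKM): C1qb at 687, Lyz2 at 241 and C1qa at 231, with Ptprc and Cd74 at 0. The part of these markers in the receptor levels was not tested. Leaving out the 5 neurons with at least 3 markers of such a list at an FPKM of 100, 6 cells remained led by a chromosome 14 gene.

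Zone markers differed between the 8 cells. Acsm4 and Nqo1, markers of the dorsal zone, had 67.5 and 7.97 FPKM in D250, led by Olfr730, and Ncam2, a marker of the ventral zone, was at 0 there. Ncam2 was highest in D261, led by Olfr720, at 139 FPKM, followed by 39.5 FPKM in D243 and 9.65 FPKM in D244. In the other 4 cells Nqo1, Acsm4 and Ncam2 were all under 1 FPKM. Nrp2 and Nrp1, neuropilins of axon guidance and the other genes of the zone list, were highest in D431, at 133 and 89.9 FPKM. Nrp2 had 44.1 FPKM in D97, 34.3 FPKM in D244, 34.02 FPKM in D261, 20.9 FPKM in D316 and 3.56 FPKM in D243, and was under 1 FPKM in D81 and D250.

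Across the stages, chromosome 14 genes were listed in the neuron stages and, apart from low values in 1 Precursor cell, were at 0 in the stages before. No Progenitor cell (0 of 11, interval up to 28.5%) and no Precursor cell (0 of 9, interval up to 33.6%) had such a gene at an FPKM of 1. The Progenitor and Precursor cells held 7 and 23 values of any Olfr gene at that level. The counts were 8 of 27 Early Immature Neurons (29.6%, interval 13.8% to 50.2%), 8 of 13 Late Immature Neurons (61.5%, 31.6% to 86.1%) and 20 of 25 Mature Neurons (80%, 59.3% to 93.2%). At an FPKM of 100 they were 3 Early Immature, 1 Late Immature and 5 Mature Neurons, which is 11.1%, 7.69% and 20%, with overlapping intervals. The median depth over the 5 stages was 6.13, 6.85, 5.69, 5.08 and 4.19 fragments per FPKM and kilobase, and its part in the counts was not tested. Stages were also spread unevenly over the runs of cell numbers. All Progenitor cells lay in D168 to D205 and D316 to D434. In those runs 2 of 19 and 10 of 37 cells had a gene at an FPKM of 1. Most Mature Neurons lay in D29 to D97 and D213 to D274, where 6 of 6 and 18 of 23 cells did. Stage and run thus cannot be told apart in these counts or in the values per cell that follow.

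The mean number of chromosome 14 genes at an FPKM of 1 was 0 in Progenitor and Precursor cells, 0.370 ± 0.688 in Early Immature, 0.846 ± 0.899 in Late Immature and 1.64 ± 1.58 in Mature Neurons (SD over 27, 13 and 25 cells). The SD was as large as the mean or nearly so in each. Over all Olfr genes the mean number was 0.636, 2.56, 7.22, 9.15 and 9.64 from the Progenitor to the Mature Neuron stage, and chromosome 14 genes made up 0%, 0%, 5.13%, 9.24% and 17.0% of these values. Mean log2 of the summed FPKM + 1 was 0, 0.15 ± 0.44, 1.62 ± 3.11, 2.66 ± 3.38 and 4.29 ± 4.35 in the same order of 5 stages, while the median sum was 0 in the first 3 stages, 1.29 FPKM in Late Immature and 3.79 FPKM in Mature Neurons. The sum was 0 in 17 of 27 Early Immature, 3 of 13 Late Immature and 1 of 25 Mature Neurons.

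**Figure D3:**
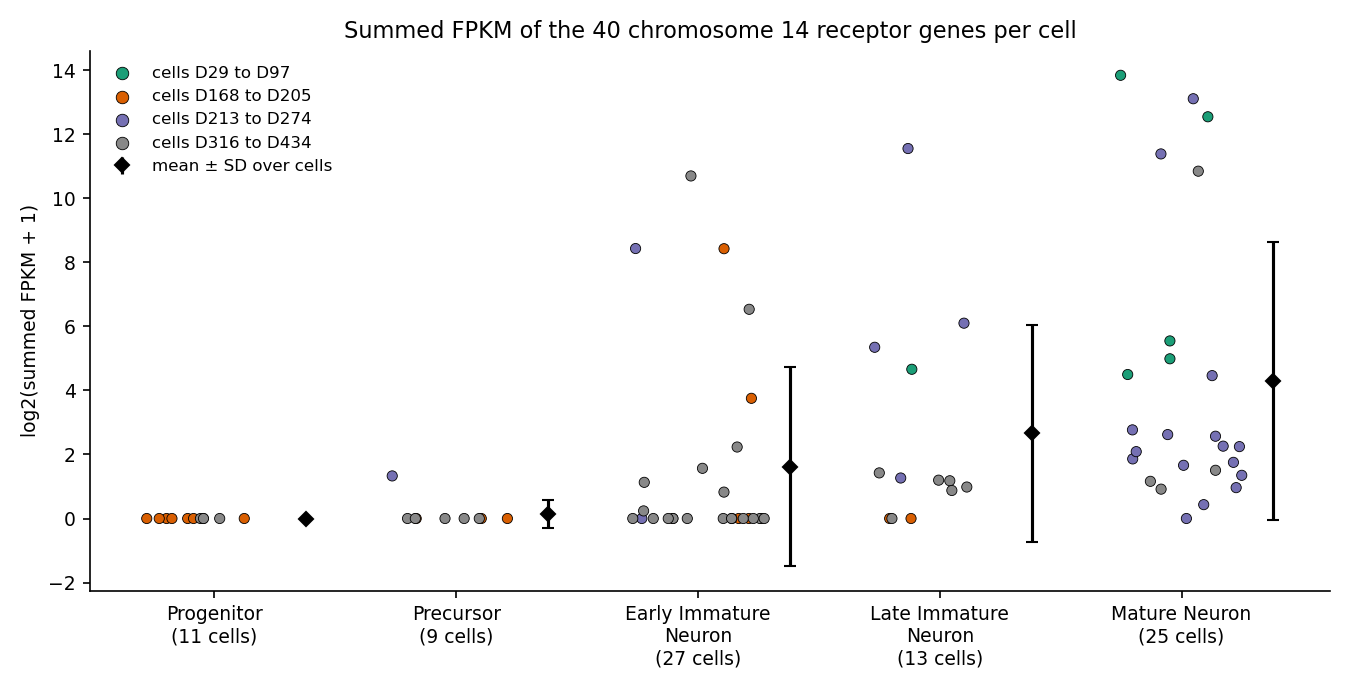
log2 of the summed FPKM of the 40 genes + 1 in each of 85 cells by stage, coloured by run of cell numbers, with diamonds and bars for the mean ± SD over cells. The highest cell sums to 1660 FPKM in Early Immature, 3005 FPKM in Late Immature and 14672 FPKM in Mature Neurons, and Progenitor and Precursor cells lie at 0 apart from the Precursor cell D242 at 1.33.

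Most of the low values came from a few runs of cell numbers. Of the 62 values at an FPKM of at least 1, 41 were under 1% of the highest value of the same gene, and 37 of these 41 lay in the run of cell numbers that held that highest value. Counting only values of at least 1% of the gene's highest left 21 values in 12 cells. The share of cells was then 18.5% of Early Immature, 15.4% of Late Immature and 20% of Mature Neurons, and the 3 shares lay close together.

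Olfr743 and Olfr1509 show this most plainly. Olfr743 had 14557 FPKM in D97 and 13.3, 24.4, 15.5, 28.5 and 14.6 FPKM in the 5 other cells of D29 to D97, and was at 0 in the 79 cells of the other runs. Olfr1509 had 5948 FPKM in D81 and 8.11, 20.8, 8.59, 15.7 and 20.2 FPKM in the 5 others, and was likewise at 0 in all 79. The low values were at most 0.196% of the highest for Olfr743 and 0.350% for Olfr1509. The 6 cells are 5 Mature Neurons and 1 Late Immature Neuron, so all 6 counted as having chromosome 14 receptors.

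In D213 to D274 the low values split by cell number, a split seen after the values were known. Olfr720 and Olfr730, which led D261 and D250, were above 0 in all 10 other cells of D250 to D274, at 0.333 to 14.5 FPKM and at 0.793 to 6.58 FPKM. Both were at 0 in the 12 cells of D213 to D245. Olfr728 and Olfr741, which led D243 and D244, were above 0 in 8 and 4 of the 11 other cells of D213 to D245, at up to 25.6 and 2.29 FPKM, and at 0 in the 11 cells of D250 to D274. Mature Neurons were 10 of the 11 cells of D250 to D274 and 6 of the 12 cells of D213 to D245, so Olfr720 and Olfr730 were at 0 in these 6 Mature Neurons. Olfr720 was above 0 in the Late Immature Neuron cell D250, at 0.333 FPKM. Depth also differed, at 0.556 to 4.99 fragments per FPKM and kilobase in D213 to D245 and 2.97 to 7.57 in D250 to D274. Its part in the split was not tested. The repeat libraries did not keep to the split. Olfr730 had 5.13 to 51.8 FPKM in the repeats of D230, D233, D243 and D244. Olfr728 had 0.421 and 0.485 FPKM in the repeats of D250 and D251.

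Olfr726 was above 0 in 11 of the 35 other cells of D316 to D434, at no more than 1.84 FPKM, and in 3 of the 48 cells of other runs, with 11.8 FPKM in the Late Immature Neuron cell D230. Olfr221 was above 0 in 1 of the 18 other cells of D168 to D205 and in none of the 66 cells of other runs. By run, a gene reached an FPKM of 1 in 6 of 6, 2 of 19, 18 of 23 and 10 of 37 cells. Within D316 to D434 alone, the share was 26.3% of Early Immature, 50% of Late Immature and 50% of Mature Neurons. The Late Immature share came from D334, D343 and D344, where Olfr726 had 1.29, 1.68 and 1.26 FPKM. The Mature share came from D316 and D329, so both shares rest on few cells.

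**Figure D4:**
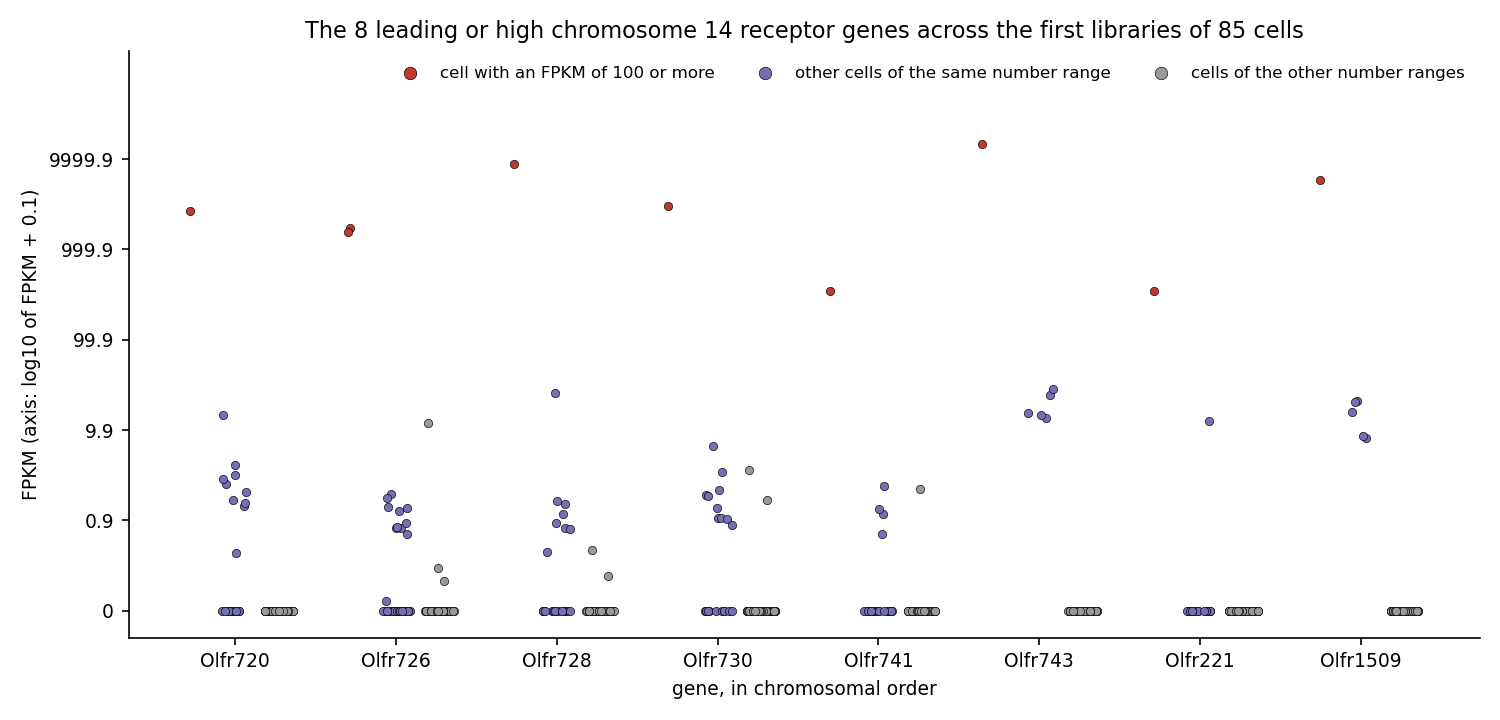
FPKM of the 8 genes that reached 100 (vertical axis: log10 of FPKM + 0.1), in the cells at 100 or more (red), the other cells of the same run of cell numbers (purple) and the cells of the other runs (grey). Purple points above 0 lie at 28.5 FPKM or lower, and all 79 grey points of Olfr743 and of Olfr1509 lie at 0.

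Several chromosome 14 genes were listed together in 17 cells, as 50 pairs at an FPKM of 1, of which 32 were within 1 Mb and 20 within 100 kb. D97 alone gave 28 pairs, 21 of them within 1 Mb. Without D97 there were 22 pairs, 11 within 1 Mb. At an FPKM of 10 there were 16 pairs in 7 cells, 10 of them within 1 Mb. Leaving out each gene that shares 31-base words with the top receptor of its cell left 5 pairs within 1 Mb. The same step left 10 of 40 genes (25%) detected, and 15.1% of all Olfr symbols.

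**Figure D5:**
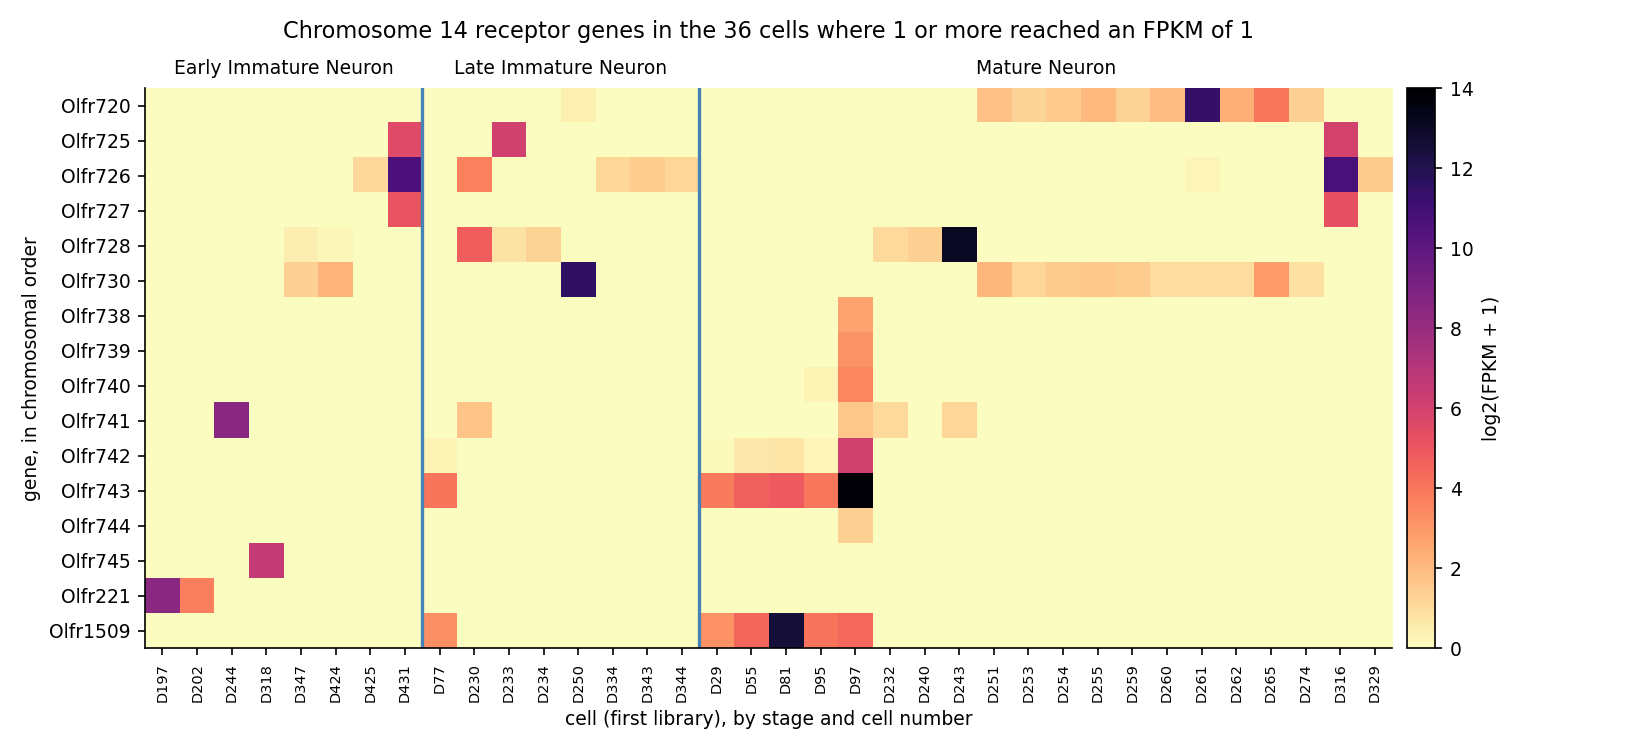
log2(FPKM + 1) of the 16 detected genes (rows, in chromosomal order) in the 36 cells with at least 1 of them at an FPKM of 1 (columns, by stage and cell number). Dark squares mark the leading genes, and the column of D97 holds 8 genes. Of 41 values of at least 1 FPKM but under 1% of the gene's highest, 37 lie in the run of that highest value.

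Likeness within the chromosome was uneven. Of the 780 pairs of the 40 coding sequences, 37 shared a 31-base word, and these pairs joined 25 genes into 7 families. Identity ran from 51.1% to 98.5% with a median of 55.8%. The family of Olfr743, linked by words directly or through other members, had 10 genes, of which 7 were detected, and that of Olfr726 had 3, all detected. On the whole chromosome 16 of the 40 genes were detected, beside 18.0% of all Olfr symbols. Olfr738, Olfr739, Olfr740, Olfr742 and Olfr744 reached an FPKM of 1 only in D97, led by Olfr743. Olfr727 did so only in D316 and D431, led by Olfr726. The part of shared reads in these detections was not tested. In the other 5 families, Olfr723 with Olfr724, Olfr732 with Olfr733, Olfr747 with Olfr749, Olfr1510 to Olfr1513, and Olfr1507 with Olfr1508, all 12 genes were at 0.

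Of the 8 cells led by a chromosome 14 gene, D243, D244 and D250 had a technical repeat. Each of these repeats had the same leading gene as the first library. Olfr728 had 2111 FPKM in the repeat of D243, against 8831 FPKM in the first library. Its coding row had 701 FPKM in that repeat, against 372 FPKM in the first library, so on the coding row the repeat was the higher one. Olfr730 had 4879 FPKM in the repeat of D250, against 3005 FPKM in the first library. Olfr741 had 219 FPKM in the repeat of D244, against 344.1 FPKM in the first library. In D230, whose top receptor was Olfr810 in the repeat and Olfr60 in the first library, Olfr728 had 1.51 FPKM in the repeat, against 25.6 FPKM in the first library. Olfr726 had 37.3 FPKM in that repeat, against 11.8 FPKM in the first library. The ratio of repeat to first library was 0.239 for Olfr728, 1.62 for Olfr730 and 0.637 for Olfr741 in the cells they led. Some genes that did not lead differed more. Olfr728 in D230 had a ratio of 0.0591, and Olfr725 in D233 had 66.9 FPKM in the first library and 0 in the repeat. Olfr741 in D243 had a ratio of 1.15. Smaller differences between single cells thus lie within what repeat libraries of a cell gave, and some larger ones may too.

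The authors' deposited table of receptor and cell pairs, which holds 134 pairs, lists 9 pairs of a chromosome 14 gene and a cell. For Olfr728 in D243 the authors' deposited table gives the coding row value, 372 FPKM, and for Olfr730 in D250 likewise 536 FPKM. Olfr741 in D244 and Olfr221 in D197 are not among the pairs of the authors' deposited table, while Olfr745 in D318 and Olfr725 in D233 are. The Pseudotime score in the authors' deposited table runs from 23.0 for D318 to 50.4 for D81 over these 9 cells, and for the cells led by Olfr726 it is 38.6 in D316 and 29.5 in D431.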

How the data were processed

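RNA of single mouse olfactory epithelium cells was sequenced after oligo(dT) priming and PCR, per the labels' protocols. The authors deposited FPKM per gene for 93 libraries, a table of receptor and cell pairs with FPKM and a Pseudotime score, and an annotation with genomic positions on mm10. Per the submitters' processing notes, the tools were TopHat2 2.0.14, Cufflinks 2.2.1, CASAVA 1.8.2, cutadapt 1.2.1 and Trim Galore. How they handled strand and reads with several matches is not stated there.

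The highest row per Olfr symbol was taken in the first library of each of 85 cells, with detection at an FPKM of 1 and a top receptor at an FPKM of 100. Sums were taken as log2(sum + 1). Depth was recovered from the spacing of low FPKM in 2349 genes with 1 exon (800 to 4000 bases, at least 5 genes, tolerance 5%) and was tested on simulated data. Coding sequences and exons came from GENCODE M21 (GRCm38), and identity and 31-base words were computed with Biopython 1.88. Python 3.11.15, pandas 2.3.3 and SciPy 1.17.1 were used. Genes leading a cell are described in full, those at an FPKM of 10 by their highest value, and the rest by counts. The genes, marker lists and alternatives were chosen with earlier results of these data known. Choices made later are named as such in the text below.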

Additional observations from a re-analysis of the deposited data

Results flagged for a closer look

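In the Precursor stage the cell D242 stood apart from the other 8 cells in the summed FPKM of chromosome 14 receptors: its log2(sum + 1) was 1.33, against 0 in each of the others. Since the other 8 cells are all at 0, any value above 0 would stand apart in this way, whatever its size. The sum of 1.51 FPKM came from Olfr728 at 0.709, Olfr741 at 0.601 and Olfr725 at 0.204 FPKM, and D242 lies among the cell numbers of D243 and D244, which Olfr728 and Olfr741 lead.

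The technical repeat libraries, which no stage value uses, held Olfr730 where first libraries did not. In the repeat of D230 it had 21.5 FPKM and in the repeat of D243 51.8 FPKM (on a row of 154 bases), against 0 in both first libraries. In all 7 repeat libraries other than that of D250, which Olfr730 leads, it had between 2.53 and 51.8 FPKM. In the 7 matching first libraries it was at 0 in 6 and at 3.35 FPKM in the remaining one, D251.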

How the results depend on the processing

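Of 117 comparisons of a stage or summary value with an alternative that keeps all cells or drops a class of them, 97 stayed within counting error, 1 SD over cells or 1.5 times the count, and 20 did not. Part of the 97 could not move, since every Progenitor sum was 0 and no Precursor value reached an FPKM of 1. The tally is thus not a measure of stability. Annotated rows alone left 10 genes detected and 3 cells led, since assembled rows had replaced the annotated ones for 6 genes. Leaving out values of genes that share words with the top receptor, a step chosen after the data were seen, left 10 genes detected and 5 pairs within 1 Mb. Pairs within 1 Mb were 10 at an FPKM of 10 and 21 with values of at least 1% of the highest, and 20 lay within 100 kb. Only cells D316 to D434 gave 2 led cells and 50% of Mature Neurons with a gene, the latter from D316 and D329 alone. At an FPKM of 10 the share was 30.8% of Late Immature and 36% of Mature Neurons. At an FPKM of 100 it was 11.1% of Early Immature, 7.69% of Late Immature and 20% of Mature Neurons. With values of at least 1% of the highest it was 15.4% of Late Immature and 20% of Mature Neurons, and with coding rows, chosen after the data were seen, 11.1% of Early Immature Neurons. At an FPKM of 0.5 the Precursor mean was 0.222 genes per cell. A pseudocount of 0.1 set the mean log2 sum to -3.32 in Progenitor and -2.88 in Precursor cells. For these settings the cause of a change was not tested beyond what their construction shows.

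Leaving out 1 cell in turn gave 7 to 8 led cells, 11 to 16 detected genes and 11 to 32 pairs within 1 Mb, the lowest of the last 2 without D97. The share of cells ranged from 26.9% to 30.8% in Early Immature, 58.3% to 66.7% in Late Immature and 79.2% to 83.3% in Mature Neurons. Genes per cell ranged from 0.269 to 0.385, 0.667 to 0.917 and 1.38 to 1.71, and the mean log2 sum from 1.27 to 1.69, 1.92 to 2.88 and 3.90 to 4.47. In Precursor cells the mean log2 sum ranged from 0 to 0.17. Scaled to a common sum of nuclear genes, Olfr743 in D97 had 4735 FPKM, Olfr1509 in D81 1959 FPKM, Olfr728 in D243 13575 FPKM and Olfr741 in D244 561 FPKM, and 8 cells were led.

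No paired analysis was possible because the labels give each cell its own number and share none between stages. The limits are few cells per stage, no named animals, amplified RNA without molecular identifiers, and coding sequences of which 37 of 780 pairs share 31-base words.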
